A study of Mus musculus with 6 samples.

Results

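Cell-surface antigens that are commonly used to enrich neural stem and progenitor cells were followed in astroglial fractions of the neonatal mouse cerebellum. The genes were Prom1, Cd24a, Cd44, Cd9, L1cam, Ncam1, Itgb1, Itga6, Egfr and Fut4, chosen by name, with earlier results of these data known. All 10 of them were on the array, out of 24943 gene symbols, and they were represented by 21 of the 55681 gene probes. Probes of 1 gene are numbered from the brightest, Prom1 (1) and Prom1 (2) for example, and a gene is read at its brightest probe.

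RNA of 6 samples was hybridised to Agilent mouse arrays in 1 colour (Cy3), 3 samples of ACSA-2+/GLAST+ cells (A+/G+) and 3 of ACSA-2-/GLAST+ cells (A-/G+). All cells came from wild-type CD1 mice of either sex, labelled as postnatal days 1 to 3, whose cerebella were pooled and dissociated before the sort, and each sample held 50000 cells. Strain and age are given here as labelled, whereas the study's methods name a different background strain for wild-type mice and a slightly younger age for the array samples. ACSA-2 is an epitope of the sodium pump subunit encoded by Atp1b2, and GLAST is the glutamate transporter encoded by Slc1a3. A+/G+ cells were taken with anti-ACSA-2 beads alone, so that the few ACSA-2+ cells without GLAST were counted with them. A-/G+ cells were first depleted with antibodies against L1CAM, ACSA-2, CD45, PSA-NCAM and Ter119 and then taken with anti-GLAST beads. L1CAM is the product of L1cam, and PSA-NCAM is the polysialylated form of the product of Ncam1, so these members were not independent of the sort. The sort procedure and the fraction cannot be told apart, and neither can the slide, because slide 1 held the A+/G+ arrays and slide 2 the A-/G+ arrays.

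Stem and progenitor cells of the brain carry no antigen that is theirs alone, and they are usually sorted by combinations of surface molecules. Prominin-1 (CD133) and the Lewis X sugar (CD15) are widely used to enrich neural stem cells, and CD24 is often used to set aside neuroblasts and ependymal cells. CD44 is a receptor for hyaluronan that has been used for astrocyte-restricted precursors, integrin α6β1 is a laminin receptor of radial glia, and the EGF receptor marks activated progenitors.

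Of the 21 probes, 6 are printed here as examples that carry a difference described below, or the contrast between probes of 1 gene. Each has at least 1 reading frame that is open throughout or, in L1cam, up to a final stop codon. Other probes with these traits are not printed, and an open frame of this length does not show coding sequence. The printed sequences are the 60-base probes of the deposited array files, 5′ to 3′, and the capitals in the L1cam probe mark the stop codon that closes its open frame.
Prom1 (2): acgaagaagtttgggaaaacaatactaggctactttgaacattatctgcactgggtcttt
Cd44 (3): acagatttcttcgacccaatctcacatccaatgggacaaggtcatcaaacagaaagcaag
Cd44 (4): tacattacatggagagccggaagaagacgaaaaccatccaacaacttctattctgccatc
L1cam: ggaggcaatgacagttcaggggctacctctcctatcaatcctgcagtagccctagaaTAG
Ncam1 (2): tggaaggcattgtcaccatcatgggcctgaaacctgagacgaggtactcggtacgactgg
Egfr (2): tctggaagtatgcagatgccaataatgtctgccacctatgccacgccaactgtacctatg
On build mm9, as given in the array files, the probes lie at chr5:44397410-44397469 (minus strand), chr2:102677971-102678030 (minus), chr2:102672645-102672704 (minus), chrX:71100374-71100433 (minus), chr9:49351182-49351241 (minus) and chr11:16783556-16783615 (plus), in that order. Their place among exons was not analysed here.

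The 75th percentile of the intensity was 329 to 332 on the A+/G+ arrays and 55.9, 112 and 250 on replicates 1, 2 and 3 of A-/G+. Between 26469 and 26653 probes were well above background in A+/G+ and between 18331 and 24726 in A-/G+. Log2 signals correlated with r of at least 0.990 among the A+/G+ arrays and of 0.957 to 0.974 among the A-/G+ arrays. The log2 signal of Atp1b2 differed by 2.16 towards A+/G+ (adjusted p = 0.00725, limma), and Slc1a3 was above in every A-/G+ array (difference -1.19, adjusted p = 0.0733). All 13 astroglial markers exceeded background clearly on all 6 arrays, and 2 passed the test in each direction. Their summed linear signal was 182595 to 200913 in A+/G+ and 175861 to 275813 in A-/G+.

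Some markers of other cells also differed between the fractions. Of all gene symbols, read at their brightest probes, 7.25% passed the test towards A+/G+ and 5.1% towards A-/G+. A list with a single marker called is near these shares. In A+/G+, 6 of the 10 ependymal markers found were higher, 3 of 12 of the oligodendrocyte lineage, 4 of 9 of meningeal fibroblasts, 3 of 7 of pericytes and 1 of 10 of endothelium. In A-/G+, 1 oligodendrocyte marker was higher, as were all 10 Bergmann glia markers, a list that holds genes the study itself picked from these arrays and is therefore not independent evidence of its direction. Of the 10 GABAergic markers 4 were higher in A+/G+, whereas 2 were higher in A-/G+. The 4 were Pcp2 (difference 4.99), Calb1 (at least 23.4-fold, with no A-/G+ array clear of background), Slc32a1 (2.84) and Gad1 (2.69). Of the 2 towards A-/G+, 1 also had medians at least 4-fold apart. The list holds Ptf1a as well, a gene of GABAergic interneurons that the study reports among its top genes of A-/G+. The GABAergic list summed to 3636 to 7309 in A+/G+ and 2953 to 3418 in A-/G+. The part of such neurons in the L1cam and Ncam1 differences below was not tested. Of the 10 microglial markers 1 was higher in A+/G+, while the median difference of the list was -0.28. Their summed signal was 1398 to 2384 in A+/G+ and 1682 to 3965 in A-/G+. Ptprc of that list, which encodes CD45, did not clear background on any array. No erythroid or choroid plexus marker of 7 each was past the test, although the summed erythroid signal was 9155 to 16422 in A+/G+ and 2741 to 8052 in A-/G+. Of the 12 granule neuron markers, 1 was higher in A-/G+, while the median difference of the list was 0.45 towards A+/G+. Summed levels are given below beside the members they moved with.

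Across the members, 7 of the 21 probes were higher in A+/G+ and 4 were higher in A-/G+ (adjusted p at most 0.05, limma with Benjamini-Hochberg adjustment over all probes, here called past the test). The same test called 9.29% of all 55681 probes, 4.65% towards A+/G+ and 4.64% towards A-/G+. With medians at least 4-fold apart as well, Prom1 (2) and Fut4 (1) were higher in A+/G+ and Cd44 (1) and Cd44 (3) in A-/G+, beside 1.53% and 0.399% of all probes (1.93% in all). The groups did not overlap at 9 member probes with A+/G+ above and at 5 with A-/G+ above, against 12.7% and 24.3% of all probes. The median difference, A+/G+ minus A-/G+, was 0.25 over the member probes and -0.043 over all probes on the log2 scale. When arrays were instead aligned at their 75th percentile, 5 member probes passed towards A+/G+ and 4 towards A-/G+, and the median over all probes became -1.02. The probes past both limits then numbered 604 in A+/G+ and 938 in A-/G+ over the whole array, compared with 851 and 222 after quantile normalization.

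Signal stood well above background on all 6 arrays for 15 of the 21 member probes, on some for 4 and on none for 2, Cd44 (4) and Fut4 (2). By its brightest probe each, 2 genes, Prom1 and Fut4, were higher in A+/G+, Cd44 was higher in A-/G+, and 7 were not past the test. Over all gene symbols these calls made up 7.25% and 5.1%. The fractions are mixtures of cells, so that fewer cells that express a gene and less of its RNA per cell cannot be told apart. The samples of a fraction are labelled as biological replicates, and 3 arrays against 3 cannot give a two-sided exact permutation p below 0.1.

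**Figure D1:**
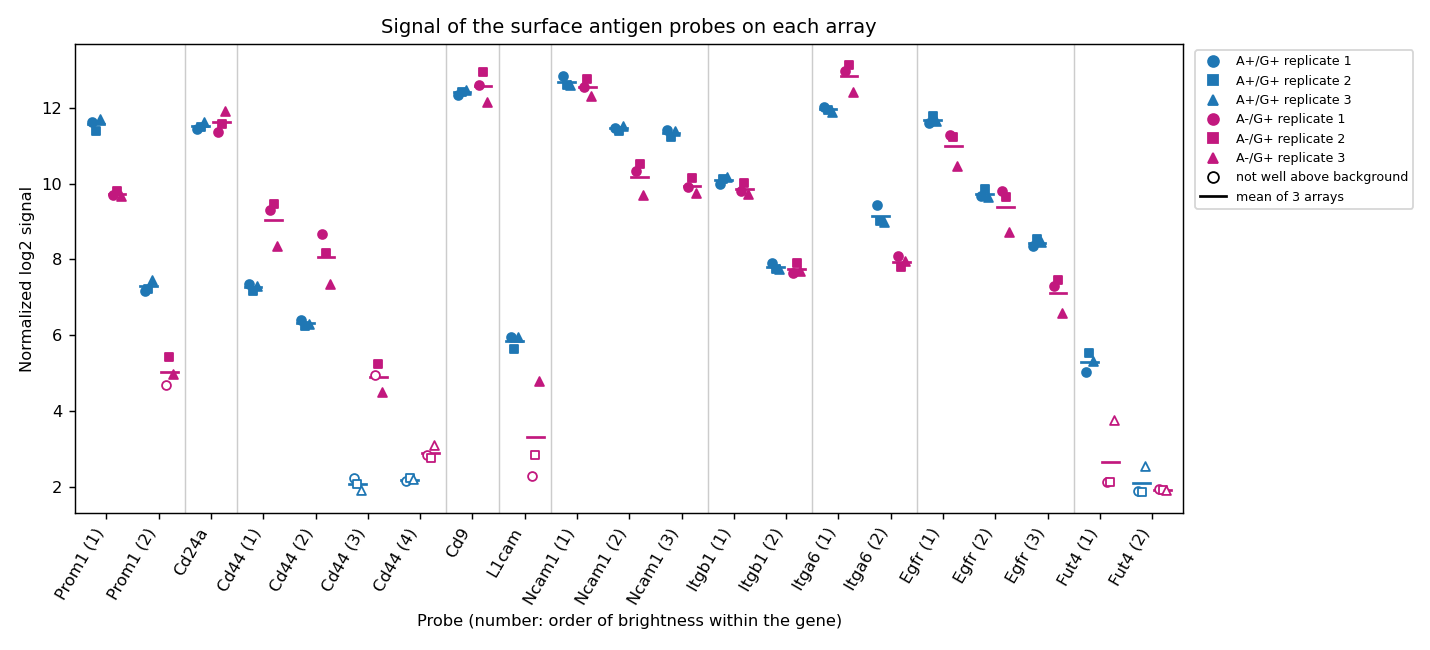
Normalised log2 signal (vertical axis) of all 21 probes of the 10 surface antigen genes, 1 point per array and a bar for the mean of each fraction, with open points for arrays on which the probe was not well above background. Prom1 lies higher on all A+/G+ arrays and Cd44 on all A-/G+ arrays, whereas the points of Cd24a and Cd9 overlap. Heights are not comparable between probes.

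Prom1, which encodes prominin-1, a pentaspan protein of membrane protrusions that is also carried by ependymal cilia, was higher in A+/G+ at both of its probes. The log2 signal of Prom1 (1) was 11.63, 11.39 and 11.70 in A+/G+ and 9.69, 9.79 and 9.67 in A-/G+. The groups were far apart relative to their spread, with 11.57 ± 0.16 (SD, n = 3) against 9.72 ± 0.06 (SD, n = 3). The difference was 1.85 (95% interval 1.59 to 2.11, adjusted p = 0.00367, limma). The ratio of the medians, 3.82, missed the 4-fold limit. Prom1 (2), whose sequence is printed above, lies 12549 bases from Prom1 (1) and gave log2 signals of 7.18, 7.23 and 7.45 in A+/G+ and 4.68, 5.42 and 4.99 in A-/G+. It was past both limits, with a difference of 2.25 (95% interval 1.71 to 2.80, adjusted p = 0.00907, limma) and medians 4.73-fold apart, although only 2 of the A-/G+ arrays were well above background there. With normexp background correction the difference was 1.16 and the medians were 2.22-fold apart, short of the 4-fold limit. Without any single array, both probes remained past the test, with differences of 1.79 to 1.94 and of 2.08 to 2.45. The summed linear signal of the ependymal markers, 7649 to 11274 in A+/G+ and 1948 to 6353 in A-/G+, moved the same way, and Dnah5 of that list did not clear background on any A-/G+ array. Its part in the Prom1 difference was not tested.

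Cd24a encodes a small mucin-like antigen anchored by a lipid, and its signal overlapped between the fractions. It was 11.44, 11.48 and 11.62 in A+/G+ and 11.37, 11.56 and 11.90 in A-/G+. The log2 difference was -0.096 with a 95% interval of -0.50 to 0.31 (adjusted p = 0.724, limma), so that a change of up to 0.50 towards A-/G+ remained within the error. Cd9, a tetraspanin that assembles with integrins, overlapped as well, at 12.35, 12.41 and 12.46 in A+/G+ and 12.61, 12.94 and 12.15 in A-/G+. Its difference was -0.16 (95% interval -0.71 to 0.38, adjusted p = 0.661, limma). Leaving out 1 array turned the sign of both, Cd24a to 0.050 without replicate 3 of A-/G+ and Cd9 to 0.024 without replicate 2 of A-/G+.

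Cd44, the hyaluronan receptor, was the only member with probes past the test towards A-/G+ after quantile normalization. All 4 probes were higher there, and no A+/G+ array reached any A-/G+ array. Cd44 (1), at chr2:102651398-102651457 (mm9, minus strand), had log2 signals of 7.36, 7.15 and 7.29 in A+/G+ and 9.30, 9.47 and 8.34 in A-/G+, where replicate 3 lay nearest to A+/G+. The difference was -1.77 (95% interval -2.61 to -0.93, adjusted p = 0.0388, limma), with medians 4.03-fold apart. Cd44 (2), 2880 bases away, read 6.39, 6.24 and 6.30 in A+/G+ and 8.66, 8.16 and 7.35 in A-/G+, a difference of -1.75 (adjusted p = 0.0471, limma). Both bright probes kept their direction under every setting tried, but their calls depended on the test and on the arrays. With the methods' t-test the adjusted p was 0.085 for Cd44 (1) and 0.0978 for Cd44 (2), both above the limit. The medians of Cd44 (1) were under the 4-fold limit with normexp (3.29-fold) and with the 75th percentile shift (3.86-fold), and those of Cd44 (2) were 3.63-fold apart and 2.35-fold with normexp. Without replicate 3 of A-/G+ the differences were -2.12 and -2.10 (adjusted p = 0.0053 and 0.0102, limma), whereas without any other single array the adjusted p lay between 0.086 and 0.146 for Cd44 (1) and between 0.0665 and 0.165 for Cd44 (2).

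Cd44 transcripts are known to be alternatively spliced, and the other 2 probes, both printed above, lie upstream of the bright ones. Cd44 (3) did not clear background on any A+/G+ array, with log2 signals of 2.23, 2.07 and 1.91, but was so on 2 of the A-/G+ arrays, where it read 4.96, 5.25 and 4.51. The excess in A-/G+ was at least 2.52-fold (adjusted p = 0.00594, limma), a bound set against the lowest signals that were well above background, and the call held without each single array. With normexp background correction the log2 difference shrank from -2.84 to -0.58 (adjusted p = 0.0101, limma). Cd44 (4), between 2.15 and 2.22 in A+/G+ and 2.83, 2.77 and 3.096 in A-/G+, passed the test (adjusted p = 0.0223, limma) but was below background in both fractions, so no fold is given. Its call was lost with normexp (adjusted p = 0.11), with trend and robust variance (adjusted p = 0.149) and without replicate 1, 2 or 3 of A+/G+ (adjusted p = 0.0894, 0.0927 and 0.0954). The summed signal of the Bergmann glia markers, 5500 to 6646 in A+/G+ and 22572 to 32195 in A-/G+, moved with Cd44, and its part in the difference was not tested.

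L1cam and Ncam1 encode adhesion molecules of the immunoglobulin superfamily, both found on neurons and their precursors, and both were targets of the depletion that made A-/G+. L1cam read 5.95, 5.64 and 5.96 in A+/G+ and 2.30, 2.84 and 4.79 in A-/G+, where replicate 3 alone was well above background. The fractions did not overlap, but the A-/G+ arrays spread widely (3.31 ± 1.31, SD, n = 3). The difference of 2.54 (95% interval 0.76 to 4.32) was not past the test (adjusted p = 0.0968, limma). The order of the A-/G+ values was that of the arrays' 75th percentiles of intensity, and without replicate 3 of A-/G+ the difference was 3.28 (adjusted p = 0.00746, limma). The test was also passed with normexp background correction (difference 0.72, adjusted p = 0.0232) and with dim probes filtered (adjusted p = 0.0354). The granule neuron markers, against which the L1CAM depletion was directed, did not move as a group. Their mean was above in A+/G+ for 9 of 12, as for L1cam, with none of these past the test. By the brightest probes Pax6 alone passed it, towards A-/G+ (difference -1.54, adjusted p = 0.0073, limma). The dimmer of the 2 Zic1 probes also passed it towards A-/G+. The summed signal of the list was nevertheless 20988 to 24795 in A+/G+ and 30083 to 32649 in A-/G+, a sum that holds the bright Zic1 (log2 signal 13.95 and 14.55). Gabra6 was the single gene of that list that did not clear background on any array. Among the A-/G+ arrays, most of these markers were highest on replicate 3, as L1cam was. Replicates 1, 2 and 3 read 8.33, 8.56 and 10.74 for Barhl1, 9.58, 9.41 and 11.47 for Tubb3, and 7.97, 8.03 and 9.81 for Dcx. Pax6, Zic1 and the dim Gabra6 were lowest on replicate 3. The part of granule neurons in the L1cam spread was not tested.

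The 3 probes of Ncam1 did not all give the same answer. Ncam1 (1), the brightest and the nearest to the 3′ end on the minus strand of chromosome 9, overlapped between the fractions at 12.85, 12.60 and 12.61 in A+/G+ and 12.55, 12.75 and 12.30 in A-/G+. Its difference was 0.15 (95% interval -0.22 to 0.53, adjusted p = 0.572, limma). Ncam1 (2) and Ncam1 (3), which the array annotates to another transcript record, were both higher in A+/G+. Ncam1 (3) read 11.42, 11.23 and 11.37 in A+/G+ and 9.91, 10.15 and 9.75 in A-/G+, a difference of 1.40 (95% interval 1.08 to 1.72, adjusted p = 0.00803, limma) that held without each single array. Ncam1 (2) read 11.47, 11.39 and 11.52 in A+/G+ and 10.32, 10.52 and 9.69 in A-/G+, a difference of 1.29 (95% interval 0.68 to 1.89, adjusted p = 0.038, limma). That call was lost without replicate 1, 2 or 3 of A+/G+ (adjusted p = 0.129, 0.13 and 0.141), without replicate 1 of A-/G+ (0.0785), with the methods' t-test (0.0827) and with the 75th percentile shift (0.0501).

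The contrast between probes of Ncam1 was larger than the spread within fractions. On each array, Ncam1 (3) lay below Ncam1 (1) by 1.35 ± 0.10 (SD, n = 3) on the log2 scale in A+/G+ and by 2.60 ± 0.045 (SD, n = 3) in A-/G+. The difference of these ratios was 1.25, with no overlap (exact permutation test, two-sided p = 0.1, the smallest that this design allows, and 0.138 after Benjamini-Hochberg adjustment over 11 probe pairs). Ncam1 (2) against Ncam1 (1) gave a difference of 1.13, also without overlap and with the same p. Which transcripts each probe reads was not tested. The sialyltransferases that build the PSA chain on NCAM, St8sia2 and St8sia4, had differences of 0.79 (adjusted p = 0.0813) and 1.86 (adjusted p = 0.177), neither past the test by limma.

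**Figure D2:**
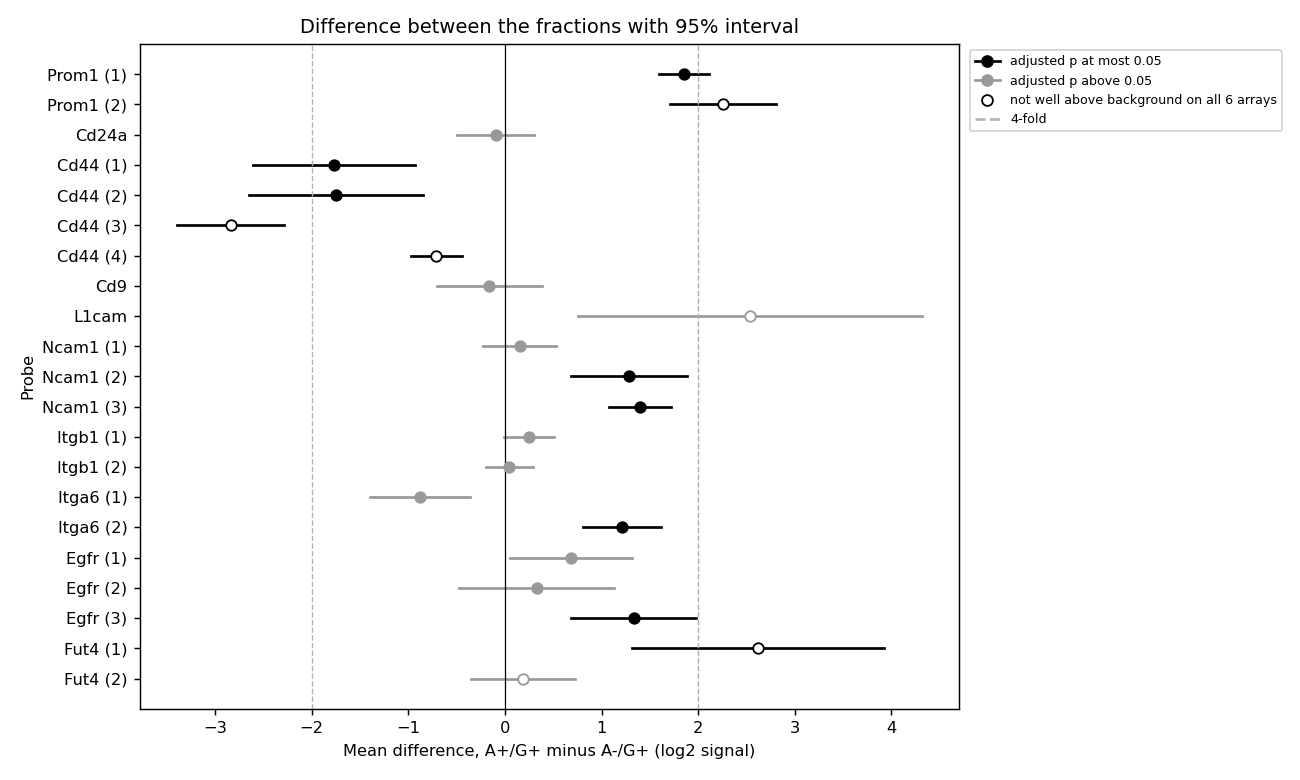
Mean difference in log2 signal, A+/G+ minus A-/G+ (horizontal axis), with its 95% interval for each of the 21 probes (rows), in black where the adjusted p was at most 0.05 and grey otherwise. Open symbols mark probes not well above background on all 6 arrays, whose differences are not bounds, and dashed lines mark 4-fold. Prom1, Cd44 and Itga6 show where probes of 1 gene stand together or apart.

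The integrin subunits Itgb1 and Itga6 together form the laminin receptor α6β1. Itgb1, which pairs with many α subunits, overlapped between the fractions at both probes. Itgb1 (1), a probe that spans an intron, read 9.99, 10.13 and 10.17 in A+/G+ and 9.80, 10.02 and 9.73 in A-/G+, with a difference of 0.25 (95% interval -0.013 to 0.51, adjusted p = 0.238, limma). Itgb1 (2) differed by 0.047 (95% interval -0.20 to 0.29, adjusted p = 0.783, limma), with the sign turned to -0.0064 and -0.0042 without replicate 1 of A+/G+ or of A-/G+. A difference larger than 0.51 on the log2 scale lay outside both intervals.

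Itga6 was the only member whose probes pointed in opposite directions after quantile normalization. Itga6 (1), at chr2:71694756-71694815 (mm9, plus strand), read 12.02, 11.95 and 11.89 in A+/G+ and 12.97, 13.12 and 12.41 in A-/G+. All A-/G+ arrays were above, but the difference of -0.88 (95% interval -1.40 to -0.36) was not past the test (adjusted p = 0.0643, limma). It passed without replicate 3 of A-/G+ (-1.09, adjusted p = 0.00843), with normexp (0.025), with dim probes filtered (0.0287) and with trend and robust variance (0.0444). Itga6 (2), 4123 bases upstream and annotated to an Ensembl transcript, read 9.439, 9.016 and 8.997 in A+/G+ and 8.08, 7.79 and 7.95 in A-/G+. Here A+/G+ was higher, by 1.21 (95% interval 0.80 to 1.62, adjusted p = 0.0178, limma), and the adjusted p was above the limit without replicate 2 or 3 of A+/G+ (0.067 and 0.0649) or without replicate 2 of A-/G+ (0.0524).

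Within an array, Itga6 (2) lay 2.80 ± 0.19 (SD, n = 3) below Itga6 (1) in A+/G+ and 4.89 ± 0.44 (SD, n = 3) below it in A-/G+. The ratios did not overlap and differed by 2.09 on the log2 scale, the largest such difference among the 8 pairs in which both probes were well above background on at least 2 arrays of each fraction (exact permutation test, two-sided p = 0.1, 0.138 after adjustment over 11 pairs). The mean of both probes differed by only 0.17. By contrast, the ratio of Cd44 (2) to Cd44 (1) differed by 0.023 and overlapped (exact permutation p = 0.8), as did that of Prom1 (2) to Prom1 (1), which differed by 0.40 (p = 0.2, exact permutation test), and that of the Itgb1 probes (-0.20, exact permutation p = 0.3).

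**Figure D3:**
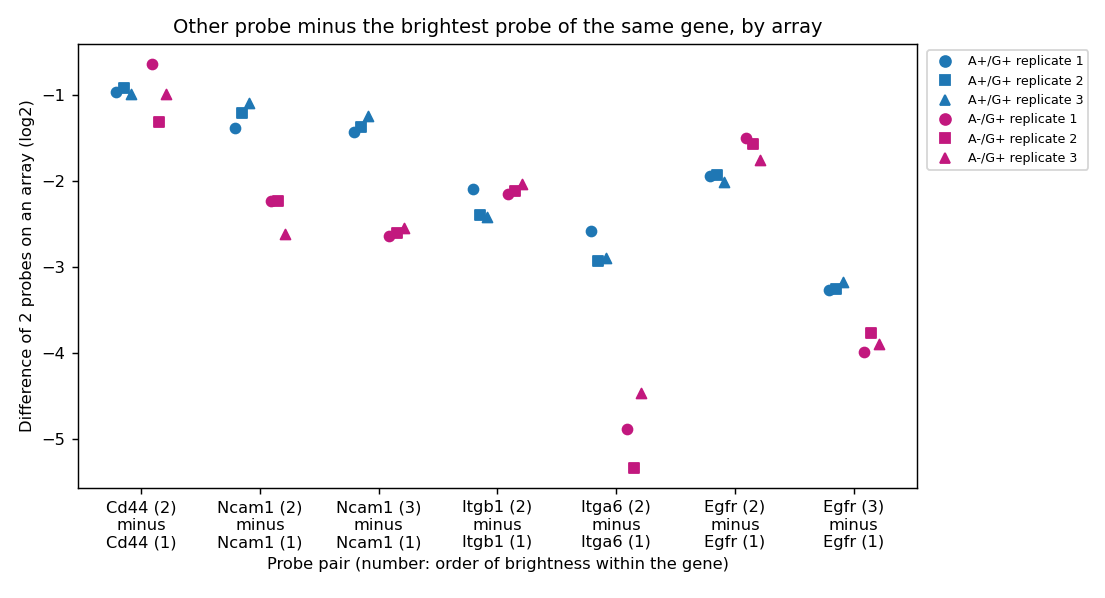
Log2 ratio of each further probe of a gene to the brightest probe of the same gene (vertical axis), 1 point per array, for the 7 pairs in which both probes cleared background on all 6 arrays. The Itga6 and Ncam1 ratios and that of Egfr (3) lie higher on the A+/G+ arrays without overlap, that of Egfr (2) lies lower, and those of Cd44 (2) and Itgb1 overlap.

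Egfr encodes the receptor for EGF, TGFα and HB-EGF, which drives proliferation of progenitors. Egfr (1) read 11.61, 11.78 and 11.64 in A+/G+ and 11.29, 11.22 and 10.47 in A-/G+. The arrays did not overlap, with replicate 3 of A-/G+ lowest, and the difference of 0.68 (95% interval 0.05 to 1.31) was not past the test (adjusted p = 0.182, limma), although it was without that array (0.42, adjusted p = 0.0406). Egfr (3) was higher in A+/G+, with 8.34, 8.52 and 8.47 against 7.31, 7.45 and 6.58, a difference of 1.33 (95% interval 0.68 to 1.98, adjusted p = 0.0417, limma). With single arrays left out, its call held only without replicate 3 of A-/G+ (1.06, adjusted p = 0.0101), and without any other array the adjusted p lay between 0.0589 and 0.154. It was also lost with the methods' t-test (adjusted p = 0.0886) and with the 75th percentile shift (0.0501). Egfr (2), printed above, lies 30259 bases from Egfr (1) and overlapped, with 9.66, 9.86 and 9.63 in A+/G+ and 9.79, 9.65 and 8.72 in A-/G+ (difference 0.33, 95% interval -0.47 to 1.13, adjusted p = 0.57, limma). Relative to Egfr (1), Egfr (3) differed by 0.65 between the fractions and Egfr (2) by -0.35, each without overlap (exact permutation p = 0.1 for both, 0.138 after adjustment).

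Fut4 encodes an α1,3-fucosyltransferase that can make the Lewis X sugar known as CD15; the antigen itself was not measured on these arrays. Fut4 (1), at chr9:14553224-14553283 (mm9, minus strand), read 5.03, 5.52 and 5.32 in A+/G+ and 2.13, 2.13 and 3.75 in A-/G+. It was well above background on every A+/G+ array and on no A-/G+ array, so that only a bound can be given, an excess of at least 1.31-fold in A+/G+ (adjusted p = 0.0435, limma). The call held without replicate 3 of A-/G+ (adjusted p = 0.00608), the array with the highest A-/G+ value, and was lost without any other single array (adjusted p between 0.1 and 0.158) and with the methods' t-test (0.0929). Fut4 (2), 1965 bases away, was below background on all 6 arrays, and its difference turned from 0.19 to -1.36 with the 75th percentile shift. Fut9, the other main Lewis X fucosyltransferase of the brain, read 8.00, 7.68 and 7.50 in A+/G+ and 7.41, 7.09 and 6.87 in A-/G+. Its difference of 0.60 (95% interval 0.10 to 1.11) was not past the test (adjusted p = 0.148, limma).

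The genes related to the members by family or function were read by their brightest probes, against 7.25% of all gene symbols higher in A+/G+, 5.1% higher in A-/G+ and a median difference of -0.034. Among 16 other integrin subunits, 6 passed the test towards A+/G+ and 1 towards A-/G+, with a median of 1.23 on the log2 scale. The median was 0.97 with dim probes at their bound, that is with genes below background in a single fraction at the lowest difference their signal allows and genes below background in both at 0. Itgb3, the β chain of the vitronectin receptor αvβ3, exceeded its A-/G+ level by 2.38 in A+/G+ (adjusted p = 0.00313, limma), Itga8 by 2.24 (adjusted p = 0.0228), Itga11, a collagen receptor subunit, by 1.72 (adjusted p = 0.0181) and Itgb5 by 1.34 (adjusted p = 0.0114). Itga7, which like Itga6 pairs with Itgb1 to bind laminin, showed a difference of 1.12 (adjusted p = 0.0106, limma), and Itga9, named after its value was seen, was the subunit higher in A-/G+ (difference -0.43, adjusted p = 0.0338). Itgav read 6.03, 5.94 and 8.66 in A-/G+ and 7.59 to 7.77 in A+/G+, so that replicate 3 of A-/G+ stood above all others and the difference of 0.79 had an adjusted p of 0.593. The other of the 2 Itgav probes was past the test towards A+/G+.

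Among 16 matrix ligands and binding partners of integrins and CD44, 7 passed the test towards A+/G+ and 3 towards A-/G+, with a median of 0.64, or 0.47 with dim probes at their bound. Vtn, the vitronectin bound by αv integrins, had the greatest excess in A+/G+, 2.98 on the log2 scale (adjusted p = 0.00638, limma), followed by Lama2, the laminin α2 chain, with 1.78 (adjusted p = 0.0225). In the other direction, Vcan, which encodes the hyaluronan-binding proteoglycan versican, differed by -1.91 (adjusted p = 0.0338), and Tnc, which encodes tenascin-C, by -1.84 (adjusted p = 0.0165). Hyaluronan links CD44 and versican outside the cell, and both transcripts were higher in A-/G+ by their brightest probes. Of the 3 Vcan probes, only the brightest passed the test. No hyaluronan synthase of the list passed it, and Has2, named after its value was seen, was above in every A+/G+ array. The meningeal fibroblast markers, whose summed signal was 88323 to 107086 in A+/G+ and 14690 to 42872 in A-/G+, and the pericyte markers, 2918 to 3383 and 687 to 1141, moved with the integrin and laminin genes higher in A+/G+, as did the endothelial markers in part (8605 to 13064 and 1871 to 8901). Their part in these differences was not tested.

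Most tetraspanins besides Cd9 did not pass the test. Of 20, 2 passed it towards A+/G+ and 1 towards A-/G+, with a median of 0.40. These were Cd63, a protein of late endosomes, at 0.99 (adjusted p = 0.00806, limma), Tspan17 at 0.94 (adjusted p = 0.0158) and Cd151, a partner of laminin-binding integrins, at -0.36 (adjusted p = 0.0383). Cd81, the closest relative of Cd9 among them, read 15.08 to 15.09 in A+/G+ and 14.20, 14.56 and 13.79 in A-/G+, a difference of 0.90 without overlap (adjusted p = 0.0639).

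Of 10 relatives of L1cam and Ncam1, 1 was higher in each direction, with a median of 0.090, or -0.074 with dim probes at their bound. Cntn1, which encodes contactin-1, differed by -0.73 (adjusted p = 0.046, limma), and Cntn4 passed the test towards A+/G+ with a signal near background on all 6 arrays. Chl1, the closest homolog of L1cam, read 12.74, 12.68 and 12.53 in A+/G+ and 11.89, 12.05 and 10.93 in A-/G+, a difference of 1.03 without overlap (adjusted p = 0.137). Ncam2 differed by -0.15 (adjusted p = 0.622).

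Of 16 receptors, ligands and inhibitors of the EGF family, 2 were higher in A+/G+ and none in A-/G+, with a median of 0.37, or 0 with dim probes at their bound, since 7 were below background on all 6 arrays. Erbb4, a neuregulin receptor, read 10.38, 10.43 and 10.07 in A+/G+ and 7.83, 7.70 and 8.92 in A-/G+, a difference of 2.15 (adjusted p = 0.0323, limma). Hbegf, a ligand of the EGF receptor, was higher by 1.74 (adjusted p = 0.00585), with 9.60 to 9.68 against 7.66 to 8.13. Erbb2, the co-receptor without a ligand of its own, differed by 0.43 without overlap (adjusted p = 0.087), and Erbb3 stayed at background on all 6 arrays.

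Among the 12 enzymes that make fucosylated or sialylated epitopes, 1 was higher in each direction, with a median of 0.36. These were St8sia5, with a difference of 1.38 (adjusted p = 0.0143, limma), and St8sia1, the GD3 synthase that starts the gangliosides recognised on glial precursors, with a difference of -0.91 (adjusted p = 0.0129). Of 10 partners of prominin, CD24 and CD44, 3 were higher in A+/G+ and none in A-/G+, with a median of 0.31, or 0 with dim probes at their bound. Slc7a11, the cystine transporter that CD44 variants are known to stabilise, differed by 3.29 (adjusted p = 0.0194), in the direction opposite to Cd44. Ezr, which encodes ezrin, was higher by 1.02 (adjusted p = 0.00425) and its scaffold Slc9a3r1 by 0.44 (adjusted p = 0.0416), and Prom2, the relative of Prom1, stayed at background on all 6 arrays.

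**Figure D4:**
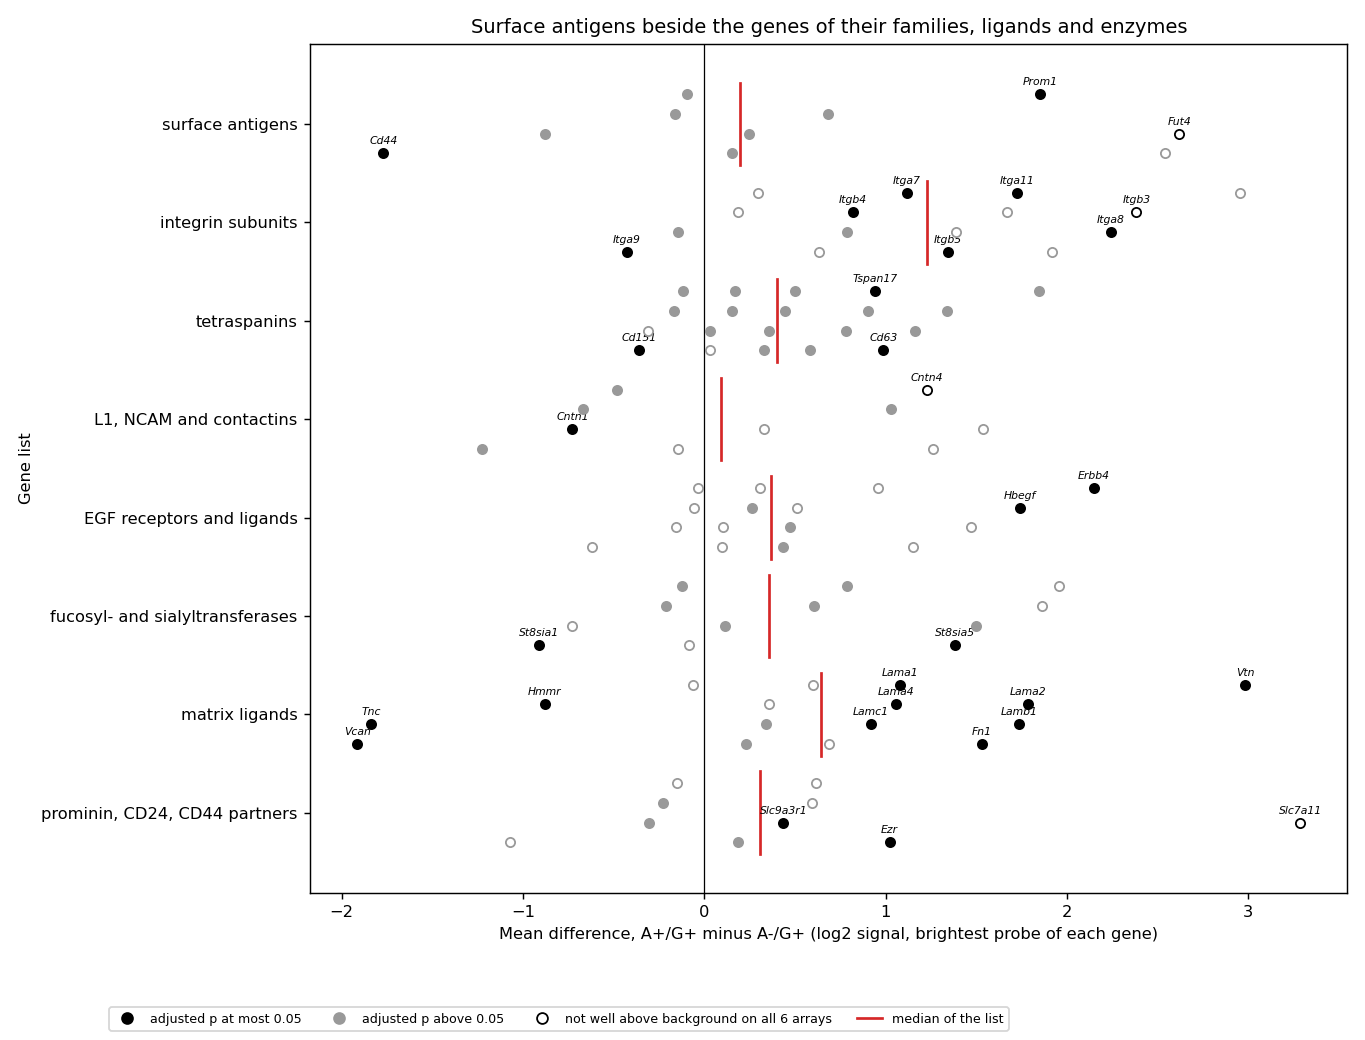
Mean difference in log2 signal, A+/G+ minus A-/G+ (horizontal axis), of the brightest probe of each gene in the surface antigens and in 7 related lists (rows), with red lines at the medians. Filled black and grey points had an adjusted p at most or above 0.05, open points were not well above background on all 6 arrays, and points are moved vertically only to separate them. The medians lie between 0.090 and 1.23, with integrin subunits farthest towards A+/G+.

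The genes most alike to the members past the test, by Pearson's r of log2 signal over the 6 arrays, were Nat8l, Tmem229a and Grhpr for Prom1 (r = 0.999, 0.998 and 0.997) and Sdccag3, Fam189a1 and Rxrg for Cd44 (r = 1.000, 0.999 and 0.999). For Fut4 they were Pdgfra, Tor3a and Tex2 (r = 0.997, 0.996 and 0.996), although the Fut4 probe did not clear background on any A-/G+ array and its values there have no order. These are descriptions over 2 fractions that also differ in slide and in sort procedure. Of the other genes well above background on all arrays, 654, 779 and 396 had an r over 0.95 with Prom1, Cd44 and Fut4. Pdgfra belongs to both the oligodendrocyte and the meningeal fibroblast list. The summed signal of the oligodendrocyte list was 16537 to 19964 in A+/G+ and 4102 to 7888 in A-/G+. That of the meningeal fibroblast list was 88323 to 107086 in A+/G+ and 14690 to 42872 in A-/G+. The part of either in the Fut4 difference was not tested.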

How the data were processed

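The deposited scanner output gave the intensity of each 60-base spot after background subtraction in Agilent Feature Extraction 10.7.3.1, per the file headers, and flags for outlier, saturated and well-above-background spots. The authors also deposited a table of quantile-normalized log2 values with 38 empty cells, used as an alternative; its background step is not given in the sources used here. Gene names and positions are those of the array on mm9, and all 10 members were found in RefSeq. Control and outlier spots were left out, intensities were taken to log2, quantile normalized and averaged over the spots of a probe, and the fractions were compared with limma 3.58.1 in R 4.3.3 over all 55681 probes without a dim filter, with Benjamini-Hochberg adjustment. The paper used a t-test on the same limits (adjusted p at most 0.05, medians 4-fold apart). Fits were tested on simulated data. Where no array of a fraction cleared background, a lower bound of the fold is given. P-values set the difference between the fractions against the spread of the samples within them, and 3 arrays a fraction limit the precision. Cerebella were pooled before the sort, so this spread is not one between single animals.

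The members and gene lists were chosen with earlier results of these data known. All members are named with all probes; from each family list at most 4 genes with the largest difference past the test are named, plus Erbb2, Erbb3, Erbb4, Fut9, St8sia2, St8sia4, Itga7, Itgav, Cd81, Chl1, Ncam2 and Prom2. Of the 11 ependymal genes listed, 10 were found. Alternatives were a 75th percentile shift, normexp (offset 50), the authors' table, a dim filter, the methods' t-test, trend and robust variance, outlier spots kept, a replicate block, averaging the probes of a gene and each array left out. Flow cytometry, stainings, grafts and single-cell data were not analysed here.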

Additional observations from a re-analysis of the deposited data

How the results depend on the processing

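Over all probes, 851 and 222 were past both limits towards A+/G+ and A-/G+. These counts were 604 and 938 with the 75th percentile shift, 235 and 48 with normexp, 487 and 121 with the methods' t-test, and 340 to 1458 and 77 to 490 with each array left out. The member probes past the test, 7 and 4, numbered 4 and 2 with the methods' t-test and 3 to 9 and 1 to 5 with each array left out. The member probes past both limits, 2 and 2, numbered 1 and 1 with the 75th percentile shift or the methods' t-test, 0 and 0 with normexp, 2 and 1 with the authors' table, 3 and 1 with dim probes filtered, and 1 to 3 in either direction with each array left out. Among the fits with 1 array left out, the highest counts came without replicate 3 of A-/G+, the array of that fraction with the most probes well above background. The cause was not tested. Of the comparisons of single member probes with an alternative, 231 kept their direction and side of the limit, 50 lost their call, 9 gained one and 8 changed sign. The sign changed for Fut4 (2) with the 75th percentile shift (-1.36), and for Itga6 with the mean of its probes (0.17). With each array left out, the difference lay between -0.036 and 0.31 for Fut4 (2), turning without replicate 3 of A+/G+, between -0.0064 and 0.12 for Itgb1 (2), turning without replicate 1 of A+/G+ or of A-/G+ (-0.0042), between -0.37 and 0.024 for Cd9, turning without replicate 2 of A-/G+, and between -0.22 and 0.050 for Cd24a and between -0.0029 and 0.53 for Egfr (2), both turning without replicate 3 of A-/G+. None of these differences was past the test in either form. The mean of all Ncam1 probes was past it (0.95, adjusted p = 0.0272).

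With the replicate number as a block, limma called 0 probes in either direction, 0 over all probes and 0 among the members past the test or past both limits, while 13 member probes had an unadjusted p under 0.05 and the lowest adjusted p of a member was 0.063. Whether samples of the same number share a pool is not stated in the labels. Deviations of same-numbered arrays correlated with 0.20, 0.11 and -0.11 for numbers 1, 2 and 3 over 17944 probes. Not every array correlated best with its own number. With 3 arrays a fraction these values cannot settle whether the numbers pair the samples. A slide block was not run, because each fraction lay on its own slide. Depth limits L1cam, Fut4, Prom1 (2) and the dim Cd44 probes, which were not well above background on every array.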
